A study of Mus musculus with 13 samples.

Results

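Goblet cells were taken as the kept cells in which Fcgbp, a mucus component, made up at least 30 of every 10000 transcripts while the alpha-defensins of Paneth cells made up less than 5%. Of 1248 barcodes in 13 single-cell CEL-seq libraries of mouse small intestine, 892 held at least 3000 transcripts and were kept. Of these 892, 95 met the rule, 12 of them in 5-day replicate 4, which is given apart. The method copies the tail end of each polyadenylated transcript and tags it by cell and by molecule, so that transcripts rather than gene lengths are counted. All mice were C57Bl6/J animals carrying Lgr5-CreERT2, in which the Lgr5 promoter of intestinal stem cells drives a tamoxifen-inducible Cre, bred to the Rosa26LSL-YFP reporter, so that a traced (YFP+) cell is an Lgr5+ cell or its offspring. The groups were traced cells at 5 days after tamoxifen (5 libraries), traced CD24+ cells at 3 weeks (1), a library labelled as non-traced CD24+ cells at 3 weeks (1), traced CD24+ cells at 8 weeks (3), traced cells at 8 weeks without the CD24 gate (1) and non-traced CD24+ cells at 8 weeks (2). CD24 is a surface protein that was used as a sorting gate. In the authors' combined table the library labelled 3-week non-traced CD24+ has a name that contains YFP and not CD24, so its label is in doubt; the label was kept, and no test uses it. The labels give no mouse for a library, no age and no sex, so p-values measure the spread between these libraries, which may come from shared animals.

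Goblet cells are the mucus-making secretory cells of the intestinal epithelium. Their main product, the gel-forming mucin Muc2, is folded in the endoplasmic reticulum (ER), decorated with O-linked sugars in the Golgi and stored in granules before release. They descend from Lgr5+ stem cells through precursors with low Notch signalling, under Atoh1 and later Spdef and Klf4.

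The Fcgbp rule left the goblet cells with a wide range of levels. Outside 5-day replicate 4, the 83 goblet cells held 30.1 to 490.0 Fcgbp transcripts per 10000, with a median of 128. The 2 cells just inside the threshold stood at 30.1 and 31.7, and the 2 just outside at 29.6 and 29.4. There were 15 cells between 15 and 30, 10 between 30 and 45 and 73 at 45 or more, while 431 of the 746 cells with few defensins had no Fcgbp transcript, so few cells lay near the threshold. A further 7 cells had at least 30 Fcgbp transcripts per 10000 but 5.16% to 18.8% defensins and were left out by the rule. All came from 8-week libraries, among them both non-traced CD24+ libraries. Among the 95 cells that met the rule the median defensin share was 0.187% and the highest 4.65%, and 15 cells held 1% or more.

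The 12 cells of 5-day replicate 4 that met the rule were kept apart. They had a median of 34 Fcgbp transcripts per 10000 and a highest value of 48.7. Of the 12 cells, 11 came from barcodes 49 to 96, where 40 of 41 kept cells held at least 15 per 10000 and the range was 14.8 to 41; the 27 kept cells of barcodes 1 to 48 had a median of 0. The same 41 cells carried 46.2 to 107 transcripts per 10000 of enterocyte genes and 46.8 to 84.2 of enteroendocrine genes, against medians of 28.2 and 1.53 in the goblet cells of the other 5-day libraries. Their Muc2 stood at 2.26 to 16.6 per 10000. Goblet cells of the other 9 libraries with 3 or more such cells came from both ends of the barcode list. No result below includes replicate 4 unless it says so.

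Over the 13 libraries the deposited tables held 421675 to 1385266 transcripts (median 738408), spike-in controls aside, and those controls made up 1.31% to 16.6%. Goblet cells had library medians of 5600 to 15653 transcripts per cell, and their sums per library ran from 8283 to 227981 transcripts, so libraries with 1 goblet cell give the least certain levels.

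Goblet cells made up 1.19% to 46.8% of the kept cells of a library. Among 5-day traced cells they numbered 4 of 74 (5.41%) in replicate 1, 7 of 67 (10.4%) in replicate 2, 5 of 63 (7.94%) in replicate 3 and 7 of 60 (11.7%) in replicate 5. Traced CD24+ cells at 8 weeks held 8 of 87 (9.2%), 1 of 65 (1.54%) and 5 of 69 (7.25%), and non-traced CD24+ cells 1 of 84 (1.19%) and 1 of 63 (1.59%). The 3-week traced CD24+ library stood far above all others, with 29 of 62 cells (46.8%, exact 95% binomial interval 34 to 59.9). The library labelled 3-week non-traced CD24+ held 5 of 50 (10%, 3.33 to 21.8) and the ungated 8-week library 10 of 80 (12.5%, 6.16 to 21.8). These intervals cover counting error only, and a sort or gate can set such shares.

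**Figure D1:**
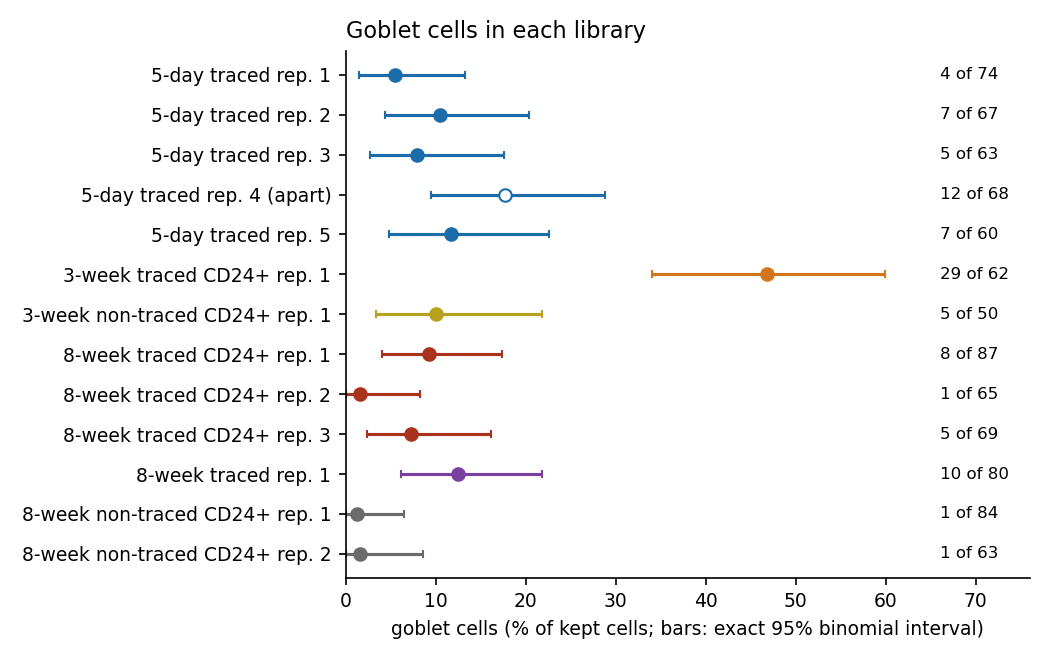
Share of goblet cells among the kept cells of each library (horizontal axis, percent), with exact 95% binomial intervals that cover counting error only and the counts at the right. The 3-week traced CD24+ library stands at 46.8%, and its interval starts at 34%, above the point of every other library.

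The mean share was 5.99% ± 3.98 (SD, n = 3) in the 8-week traced CD24+ libraries and 8.86% ± 2.78 (n = 4) in the 5-day libraries, a difference of -2.87 percentage points (exact two-sided permutation p = 0.343, adjusted over 2 comparisons 0.4, where the design allows no p below 0.0571). Against the 8-week non-traced CD24+ libraries, at 1.39% ± 0.281 (n = 2), the difference was 4.60 percentage points (exact two-sided permutation p = 0.4, adjusted 0.4). That comparison cannot go below 0.2. Both non-traced libraries and traced replicates 2 and 3 also held Fcgbp-rich cells that the defensin limit left out, so this difference depends on that limit. Traced replicate 2 lay between the 2 non-traced libraries, so the groups overlapped.

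The label of goblet cells was checked against markers that the rule did not use, in the 9 libraries with at least 3 goblet cells (80 cells). Since Fcgbp chose the cells, the contrast with the other kept cells is a description with no test. All 5 other goblet markers were higher in the goblet cells of all 9 libraries. Muc2 stood at 46.6, 62.3, 69.8 and 19.2 transcripts per 10000 in 5-day replicates 1, 2, 3 and 5, at 111 and 83.6 in the 3-week traced and non-traced CD24+ libraries, at 41.5 and 34.7 in 8-week traced CD24+ replicates 1 and 3 and at 59.7 in the ungated 8-week cells. Its range in the other kept cells was 0.787 to 7.13, so the lowest goblet library exceeded the highest library of other cells. Tff3, a trefoil peptide co-secreted with mucin, stood at 124 to 315 in goblet cells and 1.85 to 21.6 in the others. Agr2, a protein disulfide isomerase needed for Muc2 folding, stood at 42 to 146 against 0.460 to 5.52.

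Zg16, a lectin of the mucus layer, and Clca3 varied widely between libraries. Zg16 stood at 45.1, 97.6, 77.4 and 24.5 per 10000 in the 5-day goblet cells, at 96.5 and 211 in the 3-week libraries, at 14.5 and 12.6 in the 8-week traced CD24+ libraries and at 109 in the ungated 8-week cells. The other kept cells held 0.0243 to 3.01. Clca3, a mucus-processing secreted metalloprotease also called Clca1, was at 4.38, 24.4, 10.1 and 15.5 at 5 days, 32.2 and 50.1 at 3 weeks, 6.75 and 1.68 in the 8-week traced CD24+ libraries and 36.9 in the ungated 8-week library. Both genes were thus lowest, or among the lowest, in the gated 8-week goblet cells and high in the ungated ones of the same time.

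**Figure D2:**
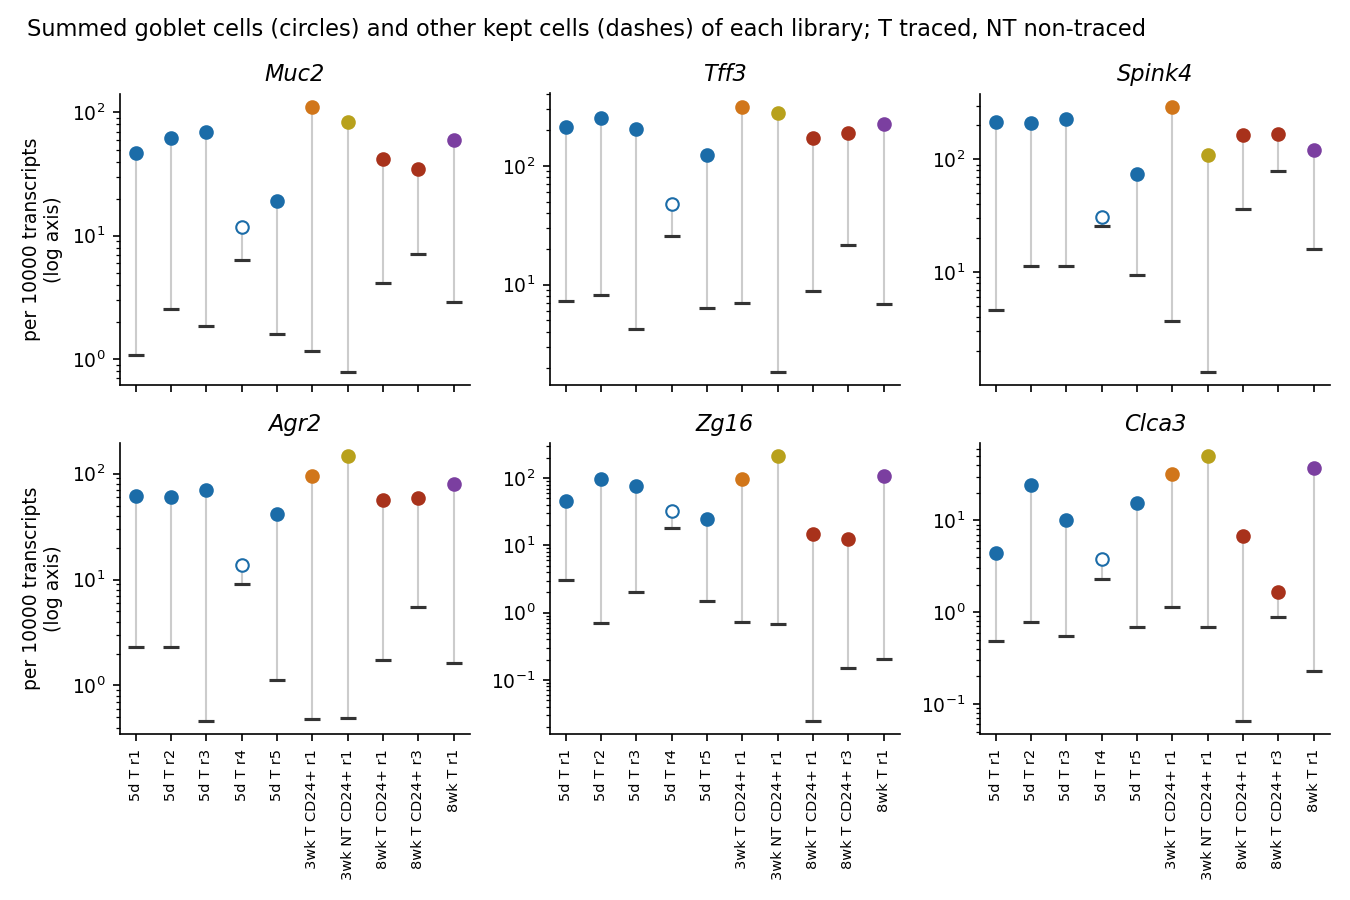
Levels of 6 goblet genes (transcripts per 10000, log axis) in the summed goblet cells (circles) and the summed other kept cells (dashes) of each library with at least 3 goblet cells; the open circle is 5-day replicate 4, which is not used in the results. In all 9 other libraries each circle lies above its dash, and in replicate 4 the circle and the dash lie close together (Muc2 11.7 against 6.31 per 10000).

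Muc2 and Fcgbp lie on chromosome 7 (141690340 to 141754691 and 28071236 to 28120864, mm10), Agr2 on chromosome 12 (35992925 to 36004081) and Guca2a on chromosome 4 (119637732 to 119639465). The 250 bases before the annotated starts of Muc2 (chr7:141690090-141690339), Fcgbp (chr7:28070986-28071235) and Guca2a (chr4:119637482-119637731), the main mucin, the gene the rule used and a secreted peptide, are shown from RefSeq (GRCm38.p6, the assembly of mm10, plus strand). Capitals mark CAGCTG and CAGATG, which basic helix-loop-helix factors such as Atoh1 can recognise, and TGTTTAC, a forkhead site; TGTTTGC was searched too, all on both strands and with no overlap between the matches.
Muc2: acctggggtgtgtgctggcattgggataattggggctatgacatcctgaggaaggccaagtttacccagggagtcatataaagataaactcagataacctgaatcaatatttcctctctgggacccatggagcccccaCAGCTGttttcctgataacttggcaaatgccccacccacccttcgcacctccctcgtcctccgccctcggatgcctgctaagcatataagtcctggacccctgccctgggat
Fcgbp: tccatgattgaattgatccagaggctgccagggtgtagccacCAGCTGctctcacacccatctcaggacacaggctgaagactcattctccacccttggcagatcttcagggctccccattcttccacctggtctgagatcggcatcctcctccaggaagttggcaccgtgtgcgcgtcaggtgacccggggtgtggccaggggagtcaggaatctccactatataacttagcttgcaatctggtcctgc
Guca2a: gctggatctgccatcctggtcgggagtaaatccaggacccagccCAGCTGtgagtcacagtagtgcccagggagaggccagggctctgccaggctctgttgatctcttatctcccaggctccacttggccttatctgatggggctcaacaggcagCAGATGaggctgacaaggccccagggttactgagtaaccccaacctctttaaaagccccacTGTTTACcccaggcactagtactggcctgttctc
CAGCTG or CAGATG was in 25.3% of the 27025 promoters of the table (6833) and in 19.4% of the 144 found for the genes higher in goblet cells, and a forkhead motif in 7.22% and 6.25%. Of 10 goblet genes looked up, 5 had an entry. Those shown all have a match, while Agr2 and Galnt7, which are not shown, had 0. A match is a description of letters, not a bound site.

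Thinned to 3000 transcripts per cell, Muc2 was found in 96.4% of 83 goblet cells, 21.3% of 741 other kept cells and 97.4% of 78 Paneth-type cells (at least 5% defensins, and part of the other cells). Unthinned, the shares were 96.4%, 35.1% and 100%, at median depths of 8718, 8588 and 17595 transcripts. Zg16 was found in 61.4%, 13.2% and 6.41% of the thinned cells (73.5%, 26.3% and 26.9% unthinned), and Clca3 in 71.1%, 8.37% and 7.69% (81.9%, 19.4% and 20.5%). A Zg16 or Clca3 transcript was thus found far less often in Paneth-type than in goblet cells, while nearly all cells of both kinds had a Muc2 transcript, at the levels given below. The Paneth gene Lyz1 was found in 62.7% of goblet cells and 66.3% of the others, so a Lyz1 transcript was no more frequent in goblet cells than in the rest.

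Across the transcriptome, 206 of the 3945 genes with at least 50 CPM in either sum (5.22%) were higher in the goblet cells of all 9 libraries and at least 2-fold at the median library, and 60 (1.52%) were lower by the same measure. These shares are the background for the list counts that follow, and nothing is read from them, since the rule used this contrast. With replicate 4 included the counts were 130 and 26.

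Among secreted proteins, 9 of 17 described members were higher in all 9 libraries by that measure (median log2 ratio 3.69, against -0.03 over all genes). They included Spink4, a protease inhibitor of the Kazal family (74.9 to 293 per 10000), Guca2a, the peptide guanylin (12.7 to 51.9), the kallikrein Klk1 (4.63 to 19) and the chemokine Ccl9 (4.06 to 49.5). Itln1, which Paneth cells also make, was higher in 2 of 9 libraries. Reg4 was higher in 5 of 9.

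Folding and granule genes gave 14 of 18. Besides Agr2 these were Ern2 (the IRE1-beta sensor of epithelial cells that make mucin), the granule trafficking proteins Rab27a, Rab27b, Sytl2 and Rep15, and Bcas1, Tpsg1, Smim14, Fxyd3, Slc12a8, Tmed3, S100a6 and Nans. Bcas1 showed the largest log2 ratio of the list, 5.99 at the median library, at 1.01 to 3.52 per 10000.

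Sugar-adding genes gave 16 of 25, with smaller ratios (median log2 1.68). The polypeptide GalNAc transferases that start O-glycans were represented by Galnt3, Galnt4, Galnt7, Galnt10 and Galnt12, the branching enzyme by Gcnt3 (log2 ratio 4.37) and sulphation by Chst4 (4.15). Enzymes and transporters of sugar donors were also higher, among them Gfpt1, Uap1, Gmds, Tsta3, Slc35a1 and Slc35c1. C1galt1c1, the chaperone of the core-forming galactosyltransferase, and Fut8 complete the group.

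ER genes gave 23 of 38 (median log2 1.18). The largest were the membrane-bound transcription factors Creb3l4 (3.82) and Creb3l1 (3.64) and the disulfide isomerase Pdia5 (3.65). General chaperones showed about 2-fold ratios, such as Hspa5, the chaperone BiP (1.27), and Calr, calreticulin (1.12). P4hb, another disulfide isomerase, stood at a median of 13 per 10000 and was higher in 8 of 9 libraries (0.68). Of the translocon and signal-sequence receptor genes, Sec61a1, Sec61b, Sec61g, Ssr1, Ssr2 and Ssr3 were in the higher group.

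GACGTG, a core of the elements that ER stress factors of the bZIP class can bind, was in the 250 bases before the start of 21 of the 144 higher genes with an entry (14.6%), and in 5.18% of all 27025 promoters (1399). It occurred before 4 of 31 genes of the ER list, 4 of 28 of the sugar list, 2 of 17 of the folding and granule list, and 0 of 14 of the secreted protein list. In the other lists the share ran from 0% (such as 0 of 30 phase genes) to 22.2% (2 of 9 stem cell genes). The 27025 promoters were not limited to genes found in these cells. Shown from RefSeq (GRCm38.p6) are Kdelr3, a receptor that returns ER proteins from the Golgi (log2 ratio 4.50), at chr15:79516158-79516407 on the plus strand, Pdia5 at chr16:35490874-35491123 on the minus strand and Hspa5 at chr2:34771840-34772089 on the plus strand. Capitals mark GACGTG or its reverse complement.
Kdelr3: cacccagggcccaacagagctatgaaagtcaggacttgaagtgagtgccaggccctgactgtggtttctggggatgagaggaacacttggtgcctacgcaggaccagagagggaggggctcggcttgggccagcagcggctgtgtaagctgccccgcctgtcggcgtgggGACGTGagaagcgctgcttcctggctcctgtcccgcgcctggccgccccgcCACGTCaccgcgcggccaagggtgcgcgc
Pdia5: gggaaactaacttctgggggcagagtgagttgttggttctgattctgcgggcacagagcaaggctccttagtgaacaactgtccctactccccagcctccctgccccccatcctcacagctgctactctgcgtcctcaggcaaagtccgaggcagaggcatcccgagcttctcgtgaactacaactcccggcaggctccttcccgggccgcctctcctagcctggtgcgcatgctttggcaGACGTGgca
Hspa5: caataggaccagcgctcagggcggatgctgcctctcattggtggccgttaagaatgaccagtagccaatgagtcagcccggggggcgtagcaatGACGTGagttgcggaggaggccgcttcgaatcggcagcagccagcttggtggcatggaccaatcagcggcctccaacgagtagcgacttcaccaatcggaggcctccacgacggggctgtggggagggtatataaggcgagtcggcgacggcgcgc
The genes were chosen by their ratios in these data, so the difference in shares carries no test.

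**Figure D3:**
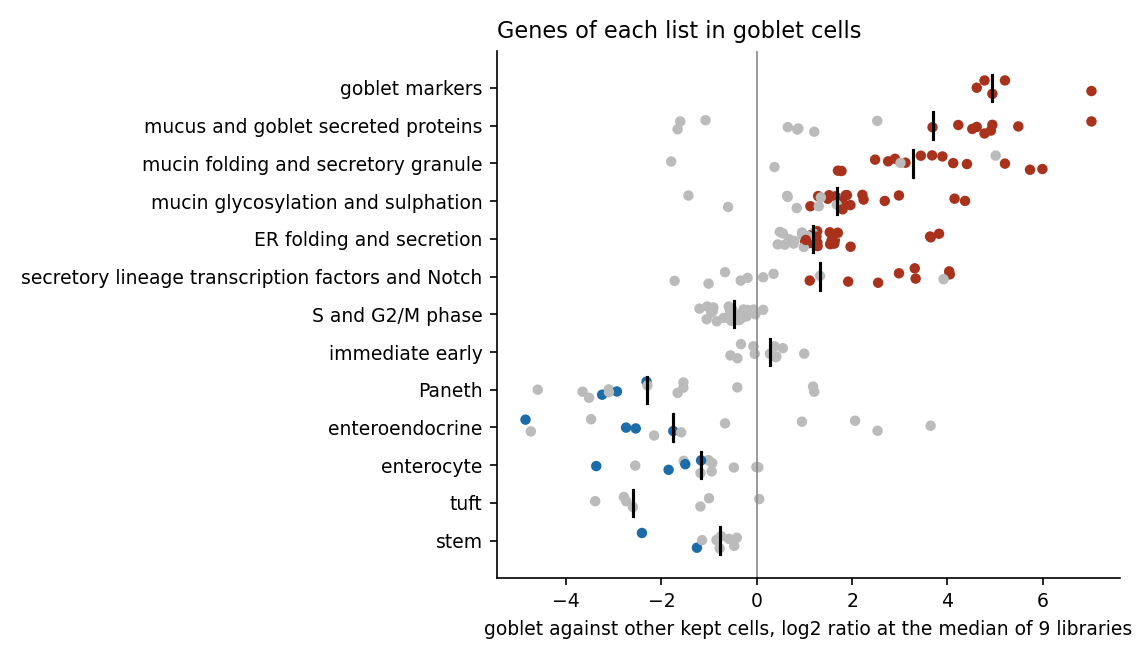
Median log2 ratio over 9 libraries of goblet against other kept cells (horizontal axis) for each described gene of 13 lists; red points are higher in all 9 libraries and at least 2-fold at the median, blue points lower by the same measure, grey points neither, and bars are list medians. The bars run from 4.94 for goblet markers to 1.18 for ER genes, and the immediate early bar stands at 0.28. Those of phase, Paneth, enteroendocrine, enterocyte, tuft and stem genes lie below 0.

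Regulators of the secretory lineage gave 8 of 17. Atoh1 stood at 1.34 to 3.36 per 10000 in goblet cells (log2 ratio 4.05), Spdef at 1.68 to 6.75 (4.04) and Klf4 at 2.13 to 11.7 (3.31). Foxa3, Hes6 and the co-repressor Cbfa2t3 were higher as well. The Notch ligand Dll1 stood at 1.34 to 5.05 (2.98) and Dll4 at 0.223 to 2.05 (2.55). Hes1, a Notch target, was higher in 1 of 9 libraries (log2 ratio -1.01).

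Markers of other lineages were present in goblet cells, in some libraries above the other cells. Lower in all 9 libraries were 4 of 13 enteroendocrine genes (Chga, Chgb, Neurod1, Tac1), 4 of 13 enterocyte genes (Fabp1, Slc5a1, Rbp2, Mttp), 2 of 9 stem cell genes (Lgr5, Ascl2) and, of 15 Paneth genes, Pnliprp2, Reg3b and Reg3a; without the Paneth-type cells among the others, Pnliprp2 turned to a log2 ratio of 1.57. Summed enterocyte markers ran from 10.2 to 37.6 per 10000 over the libraries' goblet cells and from 7.82 to 130 over the others. Summed Paneth genes outside the rule ran from 9.03 to 129 in goblet cells and from 6.26 to 578 in the others. Goblet cells exceeded the other cells of their library in Paneth genes in the 3-week traced CD24+ library (34.9 against 6.26). They did so in enterocyte genes in 8-week traced CD24+ replicates 1 (10.2 against 8.01) and 3 (10.5 against 7.82). In 5-day replicate 5 they exceeded them in enteroendocrine genes (35.4 against 13.7). In tuft genes they did so in 5-day replicate 1 (9.87 against 0.472). Near the floor, this also held in replicates 2 (0.172 against 0.0551) and 5 (0.334 against 0.289). Of the tuft markers 3 of 11 were at 0 (Gfi1b, Gnat3, Ptprc), of the immune markers 8 of 14 and of the stromal markers 5 of 7. Cell cycle genes were neither group: 0 of 31 phase genes passed in either direction, with sums of 13.6 to 93.2 in goblet cells and 20.6 to 77.1 in the others.

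A comparison with Paneth-type cells was possible in 6 libraries that held at least 3 cells of both kinds. Zg16 differed most among the mucus genes, at a median of 50.9 per 10000 in goblet cells and 0.448 in Paneth-type cells. Agr2 (59.7 and 3.13), Clca3 (12.8 and 0.193), Tff3 (197 and 22.8) and Muc2 (50.6 and 12.8) were higher in the goblet cells of all 6. Spink4 was high in both, at 167 and 109, and higher in goblet cells in 4 of 6 libraries. The Notch ligand Dll1 (2.80 and 0.225), Spdef (4.05 and 0.843) and Hspa5 (11.4 and 3.96) were on the goblet side in 6 of 6. Lyz1 (29.9 and 563), Itln1 (18.3 and 404) and Ang4 (2.17 and 136) were on the Paneth side in 6 of 6, and Reg4 in 5 of 6. P4hb did not separate them (12.5 in each, higher in goblet cells in 2 of 6). Both classes were chosen from measured values, so these are descriptions.

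Goblet cells differed widely among themselves. Over the 80 cells of 9 libraries, Muc2 ran from 0 to 284 per 10000 with a median of 63.6 and 3 cells at 0. Zg16 ran from 0 to 562 with a median of 5.96: 20 cells held none and 26 held 50 or more. Zg16-high cells were found in 8 of the 9 libraries, the exception being 8-week traced CD24+ replicate 3 (5 cells, 4 of them at 0). Tff3 (72.3 to 633) and Spink4 (2.30 to 711) were found in all 80 cells.

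Genes were ranked by their Spearman correlation with Muc2 across these 80 cells after each library had been centred (762 genes with a mean of at least 2 per 10000). The cells of a library share its depth and sort, so the values are descriptions. Highest were Tff3 (rho 0.77), Guca2a (0.76), Spink4 (0.73), Zg16 (0.72), Klk1 (0.71), Lrrc26 (0.70), Tmsb10 (0.69), Tspan1 (0.65), Agr2 (0.64) and Cgref1 (0.62). Most negative were Ptma (-0.75), Hsp90ab1 (-0.70), Ppia (-0.66), Rps2 (-0.61) and Rpl13a (-0.61), abundant genes of growing cells. Within single libraries of 7 or more goblet cells, the rho of Zg16 with Muc2 was 0.72 in the 3-week traced CD24+ library (29 cells), 0.65 in the ungated 8-week library (10), 0.56 in 8-week traced CD24+ replicate 1 (8), 0.54 in 5-day replicate 5 (7) and 0.036 in 5-day replicate 2 (7), which thus showed no such relation. The median over all ranked genes was -0.04, and Muc2 itself had a rho of -0.12 with the cell's total transcripts. Values are shares of a cell's transcripts, so abundant mucus transcripts lower the share of all others.

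Summed lists showed the same order. The 24 folding and granule genes (rho 0.72 with Muc2), the 38 sugar genes (0.65) and the 44 ER genes (0.51) were higher in Muc2-rich cells, while the 38 S and G2/M phase genes (-0.66) and 80 ribosomal protein genes (-0.65) were lower. Phase genes ranged from 2.17 to 208 per 10000 among the goblet cells, with a median of 17.2. The lineage regulators did not follow Muc2 (0.03), nor did tuft (-0.01) or enteroendocrine genes (-0.05). For enterocyte genes rho was 0.50 and for Paneth genes outside the rule 0.42. The goblet cells with the most phase gene transcripts were thus, by rank, mostly those with less Muc2.

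**Figure D4:**
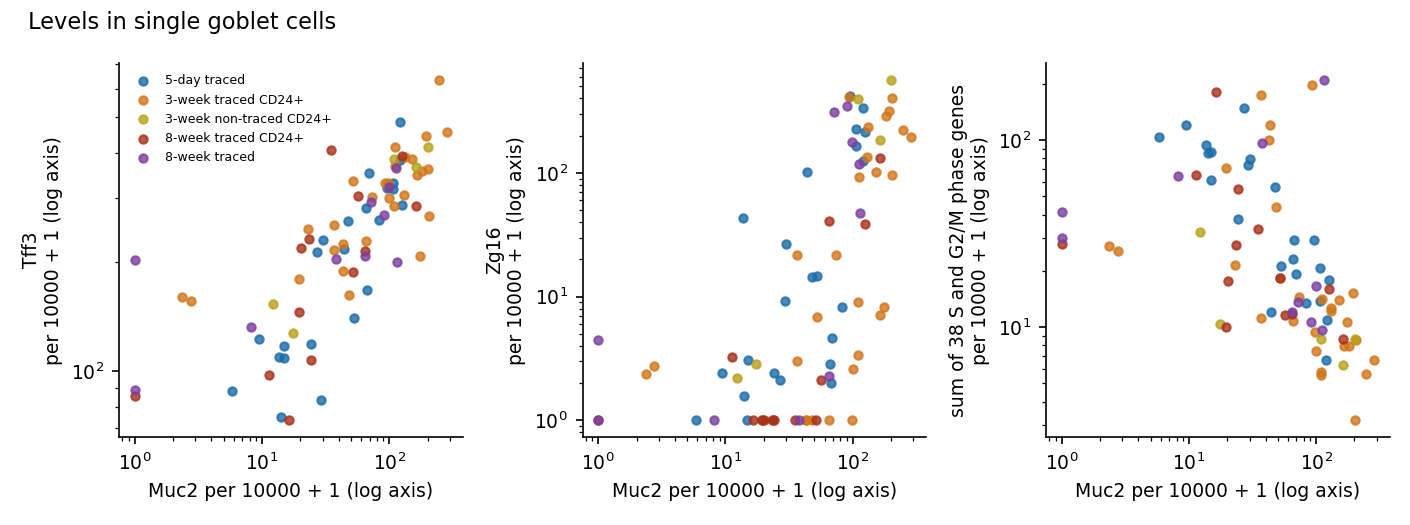
Levels in the 80 single goblet cells of 9 libraries: Muc2 (horizontal axes) against Tff3, Zg16 and the sum of 38 S and G2/M phase genes (vertical axes), all as transcripts per 10000 plus 1 on log axes, coloured by group. With each library centred, rho with Muc2 over the 80 cells is 0.77 for Tff3, 0.72 for Zg16 and -0.66 for phase genes.

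Goblet cells of the 8-week traced CD24+ libraries 1 and 3 (13 cells) were tested against those of 5-day replicates 1, 2, 3 and 5 (23 cells) a late against an early time of tracing. 8-week replicate 2, with 1 goblet cell, was left out. In edgeR's quasi-likelihood test 9 of 1090 genes passed an adjusted p of 0.05 (0.826%), 3 higher (0.275%) and 6 lower (0.55%) at 8 weeks, and 157 had an unadjusted p under 0.05. For 24% of the genes all 8-week libraries lay on 1 side of all 5-day libraries. Time, the CD24 gate, the sex of the mice and any library or sequencing batch cannot be told apart here. Xist, the X-inactivation transcript, stood at 0 in the 5-day and 0.862 ± 0.252 in the 8-week goblet cells. The Y-linked Ddx3y stood at 0.303 ± 0.143 and 0. Spike-in controls made up 7.96%, 7.04%, 6.78% and 6.81% of the tested 5-day libraries and 1.94% and 2.22% of the 8-week ones. Which library ran on which sequencing instrument is not given in the sources used here.

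Of the 3 genes that rose, Ern2 and Galnt7 belong to the mucin lists. Ern2 stood at 1.43, 1.55, 1.18 and 1.00 per 10000 in the 5-day goblet cells and at 3.67 and 5.89 at 8 weeks. The change was 1.84 ± 0.35 (SE) on the log2 scale (edgeR adjusted p = 0.0402). Galnt7, a transferase that adds GalNAc to further sites of peptides already carrying it elsewhere, stood at 2.64, 2.60, 3.32 and 2.02 at 5 days and at 6.85 and 9.68 at 8 weeks, a rise of 1.67 ± 0.31 (edgeR adjusted p = 0.0371). The 2 groups did not overlap for either gene. The later libraries outside the test also lay above every 5-day library: the 3-week traced CD24+ goblet cells held 9.14 Ern2 (exact Poisson 95% interval 7.94 to 10.5) and 6.68 Galnt7 (5.66 to 7.83), the library labelled 3-week non-traced 7.62 and 8.46, and the ungated 8-week library 5.66 and 10.3.

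The other kept cells of the same libraries moved the same way. Ern2 went from 0.111 ± 0.044 (n = 4) to 0.742 ± 0.532 (n = 2) and Galnt7 from 0.697 ± 0.088 to 1.74 ± 0.557 in them. The difference between the change in goblet cells and in other cells was -0.66 for Ern2 (edgeR adjusted p = 0.971) and 0.39 for Galnt7 (0.984). Ern2 lost its call in 10 of 19 alternatives and Galnt7 in 7 of 19. Single libraries moved the count of calls: it was 1 without 5-day replicate 2, 3 without replicate 1, 14 without replicate 3, 36 without replicate 5 and 5 without 8-week replicate 3.

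Malat1, a nuclear long non-coding RNA, rose from 1.86 ± 0.665 to 10.7 ± 4.86 per 10000 in goblet cells (log2 2.56, edgeR adjusted p = 0.0225) and stood at 1.43 ± 0.206 and 14.6 ± 5.20 in the other cells. Rpl31, a ribosomal protein gene, fell by 1.49 (edgeR adjusted p = 0.0275), Tmem38b, a cation channel of the ER, by 5.46, and the gene models Gm11517, Gm4832 and Gm6251 and Mir682 by 3.80, 3.27, 1.91 and 2.00. Over 19 alternatives the call was lost in 8 for Rpl31 and Gm6251 and in 7 for Mir682. The losses were 4 for Malat1 and Gm4832 and 3 for Gm11517, and 6 of 18 for Tmem38b. All 9 called genes had the same direction of mean level in the other cells, which share the libraries, and 0 of the 9 passed the test of a different change.

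**Figure D5:**
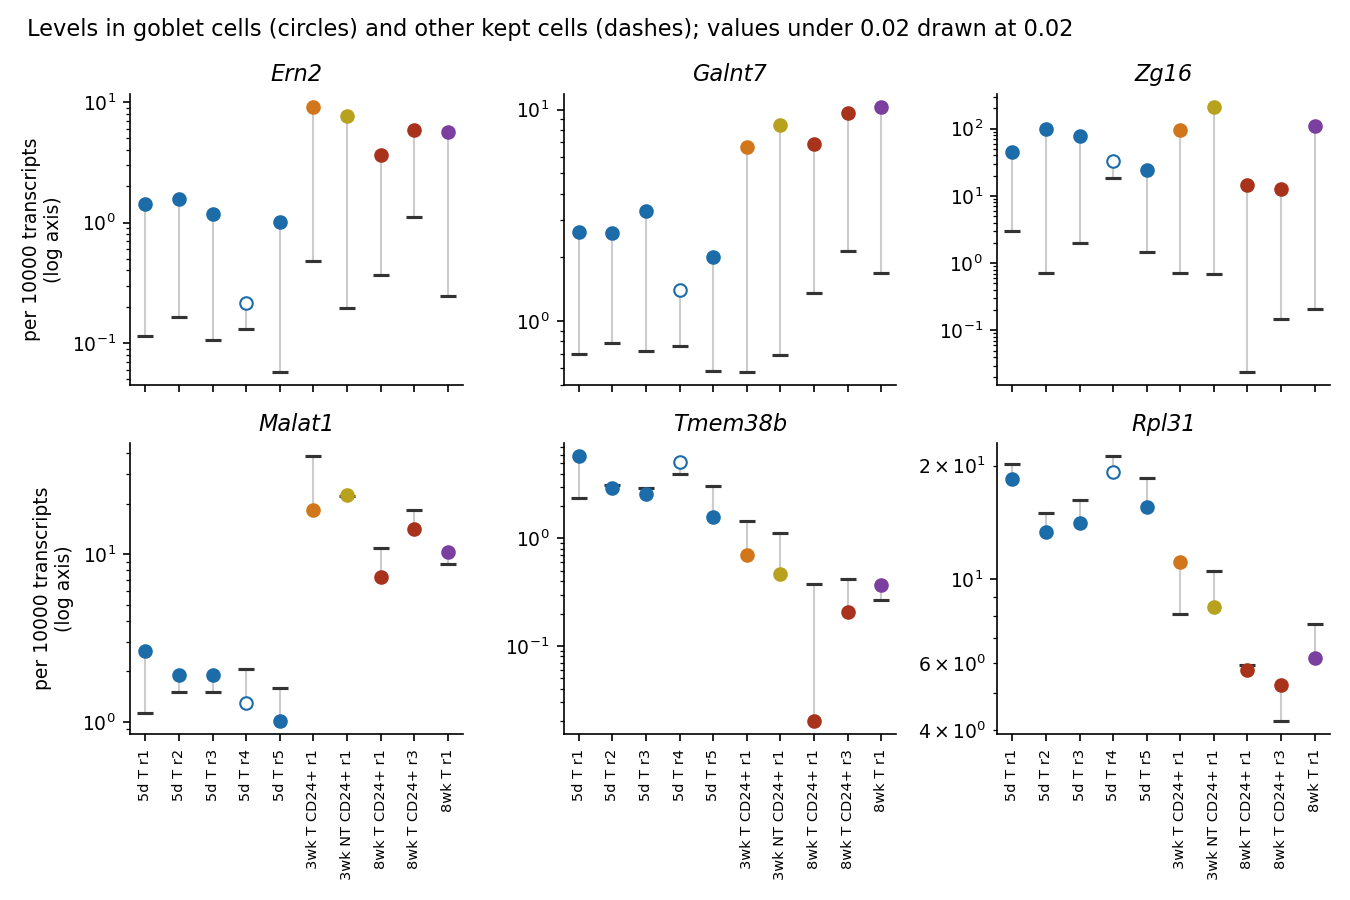
Levels of 6 genes (transcripts per 10000, log axis) in goblet cells (circles) and other kept cells (dashes) of each library with at least 3 goblet cells; the open circle is 5-day replicate 4, and Tmem38b in the goblet cells of 8-week traced CD24+ replicate 1 is at 0 and drawn at the foot of the axis. Ern2 and Galnt7 are higher in the goblet cells of all 5 later libraries than in the 5-day ones, and Malat1, Tmem38b and Rpl31 shift in goblet and other cells alike.

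The main mucus genes did not pass the test in its main setting. The log2 difference was -0.38 ± 0.41 for Muc2, -0.14 ± 0.23 for Tff3, -0.03 ± 0.21 for Agr2 (each of the 3 turned above 0 under some alternatives) and -0.14 ± 0.35 for Spink4, with edgeR adjusted p-values of 0.731, 0.834, 0.975 and 0.911. Zg16 stood at 61.1 ± 32.6 (n = 4) and 13.6 ± 1.38 (n = 2), with no overlap, but missed the threshold (-2.18 ± 0.48, edgeR adjusted p = 0.0586). It passed in 4 of 19 alternatives. It stood at 109 in the ungated 8-week goblet cells. Clca3 gave -1.62 ± 0.64 (edgeR adjusted p = 0.263) and passed in 1 of 19 alternatives. Reg3g, an antibacterial lectin, gave 2.37 ± 0.52 (edgeR adjusted p = 0.0586), from 0.899 ± 0.772 to 4.82 ± 1.55. The apolipoprotein Apoa1 of enterocytes stood at 3.05 ± 2.56 in the 5-day goblet cells and at 0 in both tested 8-week libraries.

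By list, 1 of 11 tested folding and granule genes (Ern2) and 1 of 15 sugar genes (Galnt7) passed, beside 9 of 1090 over all genes (0.826%). Among 15 secreted proteins, 30 ER genes and 8 lineage regulators the count was 0. The ER genes had a median log2 change of 0.36, and 25 of 30 were above 0, against a median of -0.00 and 544 above 0 over all 1090 genes; Hspa5 gave 0.91 ± 0.36 (edgeR adjusted p = 0.263) and Pdia3 1.40 ± 0.40 (0.127). The lineage regulators had a median of 0.71, with Spdef at 1.09 ± 0.37 (0.202). Sums in the other kept cells were also higher at 8 weeks. They went from 63.9 to 69.5 per 10000 at 5 days to 76.9 and 95.6 for ER genes. For regulators they went from 10.2 to 11.1 to 18.9 and 22.3. The difference between the change in goblet and in other cells had a median of -0.06 over 41 ER genes and -0.65 over 22 regulators. No traced against non-traced test of goblet cells was run, since each 8-week non-traced library held 1 goblet cell. In those 2 cells Tff3 stood at 337 and 196 per 10000, Muc2 at 93.8 and 35.8 and Zg16 at 1.21 and 0. Both lay close to the defensin limit, at 4.27% and 4.15%, and neither passed with defensins under 1%. Their summed Paneth genes outside the rule stood at 323 and 180 per 10000.

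Genes whose change in goblet cells differed from that in the other kept cells numbered 49 of 7239 (0.677%) by the interaction test, 7 higher (0.0967%) and 42 lower (0.58%). For Zg16, which went from 1.79 ± 0.969 to 0.0872 ± 0.0889 in the other cells, the interaction was 2.49 ± 0.56 on the log2 scale (edgeR adjusted p = 0.0109); the call was lost in 4 of 14 alternatives, among them the one without 8-week replicate 1. Fabp2, a fatty-acid binding protein of enterocytes, stood at 10.5 ± 1.17 and 5.10 ± 0.667 in goblet cells but at 12.5 ± 4.06 and 1.22 ± 0.268 in the others (2.25 ± 0.29, edgeR adjusted p = 1.42e-06). Clec2h (6.52 ± 0.92), a lectin-like receptor gene, held 0.332 ± 0.235 and 0.795 ± 0.239 in goblet cells and 1.09 ± 0.415 and 0.0308 ± 0.0321 in the others. The 5-day goblet cells held 8 Clec2h transcripts in total, in 6 of 23 cells, so these levels are near the floor. In the other cells Zg16, Fabp2 and Clec2h were all lower at 8 weeks. Summed enterocyte genes there stood at 31.2 per 10000 or more in each tested 5-day library and at 8.01 and 7.82 at 8 weeks. In goblet cells the same sums were 19.8 to 37.6 at 5 days and 10.2 and 10.5 at 8 weeks. The part of a changed make-up of the other cells in these interactions was not tested.

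The interaction was below 0 for Muc2 (-1.89), Tff3 (-1.21), Spink4 (-2.61) and Guca2a (-1.59). The edgeR adjusted p-values were 3.66e-05, 0.000769, 4.00e-08 and 0.000559. Over 14 alternatives the calls were lost in 2, 4, 1 and 3. All of these genes lost the call with 5-day replicate 4 included. Their mean levels in the other cells were higher at 8 weeks. In the other cells Muc2 went from 1.76 ± 0.608 to 5.62 ± 2.14 and Spink4 from 9.2 ± 3.16 to 57.5 ± 29.9. Paneth-type cells, which carry Muc2 and Spink4 (values above), numbered 1 of 74, 7 of 67, 8 of 63 and 3 of 60 kept cells in the 5-day libraries and 13 of 87 and 13 of 69 in the 8-week ones; their part in the result was not tested. Adh1, an alcohol dehydrogenase, stood at 7.99 ± 5.93 and 2.61 ± 0.446 in goblet cells and at 8.04 ± 0.0503 and 19.5 ± 3.35 in the others (-2.63 ± 0.38). Fxyd3, a regulator of the sodium pump, stood at 6.18 ± 1.97 and 2.28 ± 0.279 in goblet cells (-1.99 ± 0.40).

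Of the tested list genes, 5 of 8 tuft and 3 of 13 enteroendocrine genes were among the 42 of 7239 (0.58%) with an interaction below 0. For 17 of the 49, 1 cell held over 80% of all transcripts of the 5-day goblet cells. The cell with the most tuft markers, in 5-day replicate 1, had 40.7 per 10000 against a median of 0 over the 80 cells, with Fcgbp at 151 and Muc2 at 29. The cell with the most enteroendocrine markers, in 5-day replicate 5, had 171 against a median of 2.81, with Fcgbp at 44.2, Muc2 at 13.1 and Cck in no other 5-day goblet cell. Doublets were not called, so mixed cells of this kind remain among the 95.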

How the data were processed

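Single cells of mouse small intestine were measured by CEL-seq in 13 libraries of 96 barcodes, sequenced on Illumina instruments of different kinds, per the labels' protocols; which library ran on which is not given in the sources used here. Reads were aligned with BWA 0.6.2-r126 to mm10, per the submitters' processing notes. What the authors deposited are unscaled expected counts, 1 value for each gene in each barcode: each equals the number expected from a whole number of the 256 molecular barcodes, and 145 of 3145332 values above 0 stood at the ceiling of 1597, which holds such genes down. All libraries use the same 96 barcodes, and no 2 kept cells had identical profiles.

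Cells with at least 3000 transcripts outside the spike-in controls were kept. Goblet cells had at least 30 Fcgbp transcripts per 10000 and under 5% for symbols starting with Defa plus Gm14851 and Gm15284. Levels are transcripts per 10000 of the summed cells of a library, SDs are over libraries, and Poisson and binomial intervals are exact (95%). The contrast with other kept cells needed 3 goblet cells in a library; its log2 ratios used a pseudocount of 0.5 transcripts. For tests, sums per library were rounded and fitted with edgeR 4.0.16 (R 4.3.3, limma 3.58.1; TMM scaling, its filter on low counts, quasi-likelihood F test, Benjamini-Hochberg threshold 0.05), leaving out the 18 genes the rule used from the genes tested. The interaction model compared the change in goblet cells with that in the other kept cells. DESeq2 1.42.0 was an alternative. Shares were compared by exact permutation over libraries. Python 3.11.15 with numpy 2.4.6, pandas 2.3.3, scipy 1.17.1 and matplotlib 3.10.9 did the rest.

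On simulated data the test between times in goblet cells recovered 24.2% of 2-fold and 79.4% of 4-fold changes, and the interaction test 1.8% and 31%. Named genes were all goblet markers, the largest ratios and called changes above set expression levels with no overlap between libraries, list members that passed or were most abundant, and the 15 strongest correlations with Muc2; others were named after their values were seen. The members, the lists and the tests were chosen with earlier results of these data known. Alternatives changed the cell thresholds, scaling, filters, tool and libraries. 5-day replicate 4 was left out of the tests and of the contrast with other cells except where its inclusion is stated, and doublets were not called.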

Additional observations from a re-analysis of the deposited data

Results flagged for a closer look

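In the 5-day goblet cells, 2 of 32 gene and group sets checked had 1 library far from the other 4. Chance gives about 1 in 20, so this count is near chance. In both sets the library was replicate 4. Both genes were named from results that left replicate 4 out, which can itself set it apart. Kdelr3 stood at 0 per 10000 in replicate 4 and at 0.557 to 0.714 in the others, and Mir682 at 18.7 against 8.97 to 10.5.

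For 6 genes named by the rule, the change from 5 days to 8 weeks in goblet cells differed from that in the other kept cells of the same libraries by edgeR's interaction test. On the log2 scale the difference was 6.52 for Clec2h, 2.49 for Zg16, 2.25 for Fabp2, 1.98 for Reg3g, -2.63 for Adh1 and -1.99 for Fxyd3. Over 14 alternatives the calls for Fabp2 and Adh1 were kept in all 14, Clec2h in 13, Fxyd3 in 11, Zg16 in 10 and Reg3g in 7. Clec2h levels were near the floor, with 8 transcripts over the 5-day goblet cells tested. The part of a changed make-up of the other kept cells in these differences was not tested.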

How the results depend on the processing

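The 9 genes called between times in goblet cells became 70 with Fcgbp at least 15 per 10000, 52 with at least 60, 4 with defensins under 1%, 18 with DESeq2, 73 with no filter on low counts, 17 with libraries of 1 goblet cell or more and 3 with 5 or more; leaving out 1 library gave 1 to 36. The count therefore depends on these settings. Whether equal replicate numbers pair the samples could not be told. Correlations of deviations were 0.0228 and 0.219 for equal numbers, but with 2 libraries at 8 weeks the deviations mirror each other. Each value therefore recurs with the opposite sign. The fit with the replicate block on replicates 1 and 3 called 1 gene, and the same libraries unpaired, an alternative chosen after seeing the data, 0. The interaction's 49 calls became 19 with defensins under 1%, 17 with DESeq2, 24 with 5-day replicate 4 included, and 40 to 78 without 1 library. The 206 higher genes became 130 with replicate 4 included (206 to 241 without 1 library), and the 60 lower genes 26 with it, 101 without Paneth-type cells, 91 with 5 goblet cells or more, 101 with a mean over cells, and 60 to 106 without 1 library.

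Signs turned for uncalled log2 differences between times. Agr2 became 0.056 (a higher minimum of transcripts), 0.29 and 0.52 (Fcgbp at least 15 and 60), 0.23 (replicate 4 included), 0.011 (1 goblet cell or more) and -0.19 to 0.054 without 1 library (highest without 5-day replicate 3). Muc2 became 0.14 and 0.32, and Tff3 0.29 and 0.37, with Fcgbp at least 15 and 60; Tff3 became 0.12 with replicate 4 and -0.33 to 0.0055 without 1 library (highest without 5-day replicate 2). The Galnt7 interaction ran from -0.0047 (without 8-week replicate 1) to 0.51 without 1 library, and the Pnliprp2 ratio 1.57 without Paneth-type cells. The cause of these shifts was not tested. The 2 share differences kept their sign in all 13 and 10 alternatives; their tests could not pass 0.05 with the libraries of the main comparisons, so the p-values say nothing of stability. The differences were -4.47 to -0.643 and 3.00 to 6.83 percentage points without 1 library.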
